A study of Homo sapiens with 6 samples.

Results

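Interleukin-6 and its relatives signal through receptor chains, Janus kinases (JAKs) and the transcription factor STAT3. Here, 10 genes of this route were examined in A549 cells transfected with siRNA against BAP18 or with a control siRNA. The 10 genes were chosen by name for their place in the route, out of 35474 genes listed, with earlier results of these data known. They are the receptor genes IL6ST, IL6R, LIFR and OSMR, the kinase genes JAK1 and JAK2, STAT3, and the inhibitor genes SOCS1, SOCS2 and SOCS3. A549 cells derive from a human lung adenocarcinoma, and BAP18, listed under its gene name C17orf49, is a chromatin-associated protein. The siBAP18 group held 3 cultures transfected with siRNA against BAP18, and the siCtrl group held 3 cultures transfected with a non-specific siRNA. RNA was collected 48 h after transfection, and poly(A) RNA was sequenced. The study describes 3 siRNAs against BAP18, and the sources used here do not state which of them these cultures received. All 6 cultures are of 1 cell line, with no added cytokine named in the labels.

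In this family, a cytokine binds its own receptor chain and then, for most members, recruits the shared chain gp130, the product of IL6ST. JAK1, JAK2 and TYK2 bound to the receptor tails phosphorylate STAT3, which dimerizes, enters the nucleus and binds DNA. SOCS3 binds gp130 and the kinases and ends the signal, while SOCS2 is best known for restraining growth hormone signaling through STAT5. IL6R, LIFR and OSMR give the route its ligand specificity, for interleukin-6, leukemia inhibitory factor and oncostatin M.

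Counts per gene were deposited for each library, with totals between 42094524 and 56548620. After TMM scaling in edgeR they are given as CPM, that is counts relative to the scaled library total, with the SD over 3 libraries. Groups were compared with edgeR's quasi-likelihood test, and p-values were adjusted by the Benjamini-Hochberg method over the 20776 genes that passed the filter on low counts. A gene is said to have risen or fallen at an adjusted p under 0.05, and is called where the absolute log2 fold change also exceeds 1. Counts of C17orf49 were 743, 751 and 705 with siCtrl and 120, 137 and 108 with siBAP18, a log2 fold change of −2.65. Mitochondrial genes took 6.86% to 7.43% of the counts in siCtrl and 5.27% to 6.14% in siBAP18, and the part of this difference in the results below was not tested. Fewer cells of a kind and less RNA per cell cannot be told apart in such samples.

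After transfection of siBAP18, the shared receptor chain IL6ST fell 2.09-fold and SOCS2 rose 2.62-fold. LIFR, OSMR, JAK2 and SOCS3 fell by smaller amounts, STAT3 rose, and IL6R and JAK1 did not pass the test. SOCS1 was too low to be tested. Of the 9 genes tested, 2 rose, against 24.5% of all genes tested, and 5 fell, against 25.1% of all genes tested. By the stricter rule, 1 of the 9 was called higher, against 4.72% of all genes, and 1 was called lower, against 3.74%. The CPM of the groups did not overlap in 8 of the 9, against 56.6% of all genes. The median log2 fold change of the 9 genes was −0.24, and that of all genes tested was 0.0010.

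**Figure D1:**
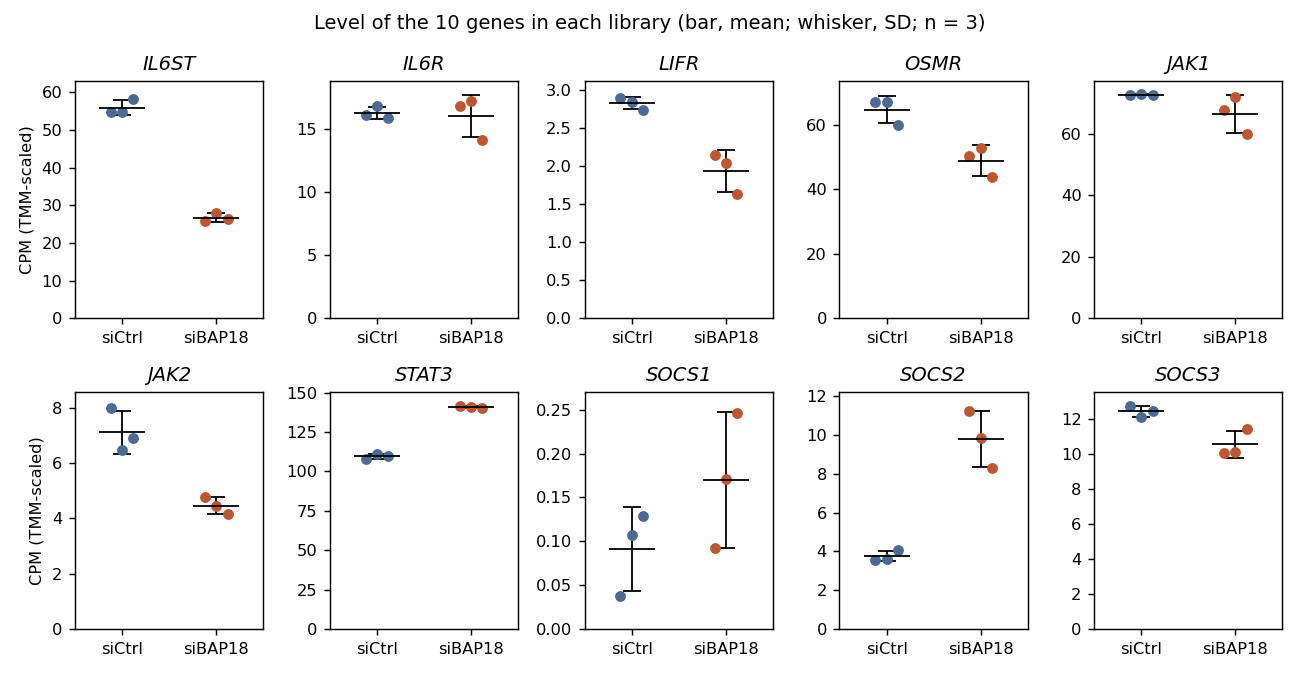
Level of the 10 genes in each library, in TMM-scaled CPM on axes that start at 0; points are libraries, bars are means and whiskers are SD over 3 libraries. The siBAP18 points lie below the siCtrl points for IL6ST, LIFR, OSMR, JAK1, JAK2 and SOCS3, above them for STAT3 and SOCS2, and overlap them for IL6R and SOCS1.

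The receptor genes were examined first. IL6ST encodes gp130, the chain shared by the receptors for interleukin-6, interleukin-11, leukemia inhibitory factor and oncostatin M. Its position on GRCh38 is chromosome 5, 55935095 to 55994993, on the − strand. Its level was 54.7, 54.8 and 58.3 CPM in siCtrl and 25.7, 28.0 and 26.5 CPM in siBAP18. The lowest siCtrl library was far above the highest siBAP18 library. The means were 55.9 ± 2.08 CPM (SD, n = 3) and 26.7 ± 1.18 CPM (SD, n = 3), a 2.09-fold lower level after siBAP18. On the log2 scale IL6ST changed by −1.07 with a standard error of 0.0700 (adjusted p = 4.18e-12, edgeR quasi-likelihood test with Benjamini-Hochberg adjustment), larger in size than in 92.4% of the genes tested. An antisense gene, CTD-2031P19.5, shares 797 exon bases with IL6ST and changed by −1.29 on the log2 scale (adjusted p = 5.84e-08). The setting for strand in the counting is not given in the sources used here, so reads of the pair cannot be told apart.

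IL6R encodes the chain that binds interleukin-6 itself, on chromosome 1 from 154405193 to 154469450. It had 16.1, 16.8 and 15.9 CPM in siCtrl and 16.9, 17.2 and 14.2 CPM in siBAP18. These groups overlapped, and siBAP18 replicate 3 was the lowest of the 6 libraries. The log2 fold change was −0.013, with a 95% interval from −0.18 to 0.15 (adjusted p = 0.914), and it was 0.069 without siBAP18 replicate 3.

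OSMR, the chain that pairs with gp130 for oncostatin M, lies on chromosome 5 from 38845858 to 38945596. Its level was 67.1, 67.2 and 60.0 CPM in siCtrl and 50.4, 52.9 and 43.7 CPM in siBAP18. Every siBAP18 library lay below every siCtrl library, and replicate 3 was the lowest of both groups. OSMR fell by 0.40 on the log2 scale (standard error 0.0759, adjusted p = 8.95e-05). It shares 229 exon bases with RICTOR on the other strand, whose log2 fold change was 0.05 (adjusted p = 0.628).

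LIFR, the chain that pairs with gp130 for leukemia inhibitory factor, lies close to OSMR, at 38474963 to 38608354 of chromosome 5 on the − strand. It was the lowest of the 4 receptor genes, with 2.90, 2.84 and 2.74 CPM in siCtrl and 2.15, 2.04 and 1.63 CPM in siBAP18. The groups did not overlap. LIFR fell by 0.53 on the log2 scale (standard error 0.162, adjusted p = 0.00801). LIFR-AS1, an antisense gene with 629 shared exon bases, stood at a log2 fold change of 0.31 (adjusted p = 0.558).

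The kinases and STAT3 came next. JAK2 lies on chromosome 9 from 4984390 to 5128183, and also serves the receptors for growth hormone and erythropoietin. It had 7.97, 6.45 and 6.89 CPM in siCtrl and 4.78, 4.45 and 4.14 CPM in siBAP18. All siBAP18 libraries lay below the siCtrl libraries. JAK2 fell by 0.67 on the log2 scale (standard error 0.117, adjusted p = 3.31e-05).

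JAK1, the kinase most needed by gp130, lies on chromosome 1 from 64833229 to 64966504. Its level was 72.6, 72.9 and 72.7 CPM in siCtrl and 67.9, 72.1 and 59.9 CPM in siBAP18. The siCtrl libraries were nearly equal, and the siBAP18 libraries were all lower but spread widely. Its log2 fold change of −0.13 had a 95% interval from −0.27 to 0.015 (adjusted p = 0.151). Without siBAP18 replicate 2, the library nearest to siCtrl, the log2 fold change was −0.19 with an adjusted p of 0.0206. Without siBAP18 replicate 3, the lowest library, it was −0.053 with an adjusted p of 0.459. With any other library left out, the adjusted p lay between 0.216 and 0.263.

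STAT3 lies on chromosome 17, at 42313324 to 42388568 on its − strand, beside STAT5A and STAT5B. It had 108, 111 and 110.0 CPM in siCtrl and 142, 141 and 140.1 CPM in siBAP18. Libraries of the same group were close to each other, and every siBAP18 library lay above every siCtrl library. The means were 109.6 ± 1.63 CPM and 141 ± 0.819 CPM (SD, n = 3 each), and STAT3 rose 1.28-fold (log2 fold change 0.36, standard error 0.0634, adjusted p = 3.55e-05).

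The SOCS genes encode inhibitors that STAT proteins themselves induce. SOCS2 lies on chromosome 12 from 93569814 to 93583487. Its level was 3.57, 3.61 and 4.06 CPM in siCtrl and 11.2, 9.85 and 8.31 CPM in siBAP18. The lowest siBAP18 library was well above the highest siCtrl library. SOCS2 rose 2.62-fold (log2 fold change 1.39, standard error 0.120, adjusted p = 5.34e-10), a larger change in size than in 96.1% of the genes tested. SOCS2-AS1, which shares 277 exon bases with it on the other strand, rose by a log2 value of 1.59 (adjusted p = 2.08e-08), and reads of this pair cannot be told apart either.

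SOCS3, the inhibitor that acts on gp130 itself, lies on chromosome 17 from 78356778 to 78360077. It had 12.7, 12.1 and 12.4 CPM in siCtrl and 10.1, 10.1 and 11.4 CPM in siBAP18. The groups did not overlap, and siBAP18 replicate 3 came nearest to siCtrl. SOCS3 fell by 0.24 on the log2 scale (standard error 0.0884, adjusted p = 0.0255). The adjusted p was 0.093, 0.069, 0.108 and 0.063 without siCtrl replicate 1, siCtrl replicate 3, siBAP18 replicate 1 and siBAP18 replicate 2, so the fall did not pass the test without any 1 of these 4 libraries, while the log2 fold change with each library left out lay between −0.30 and −0.21.

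SOCS1, an inhibitor that blocks the kinases directly, lies on chromosome 16 from 11254405 to 11256179. It had 2, 5 and 6 counts in siCtrl and 5, 10 and 10 counts in siBAP18. The groups overlapped, and the gene did not pass the filter on low counts. With the filter lifted, its value on the log2 scale was 0.86 with a standard error of 0.76 (adjusted p = 0.482), so a difference was not detectable at this depth.

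**Figure D2:**
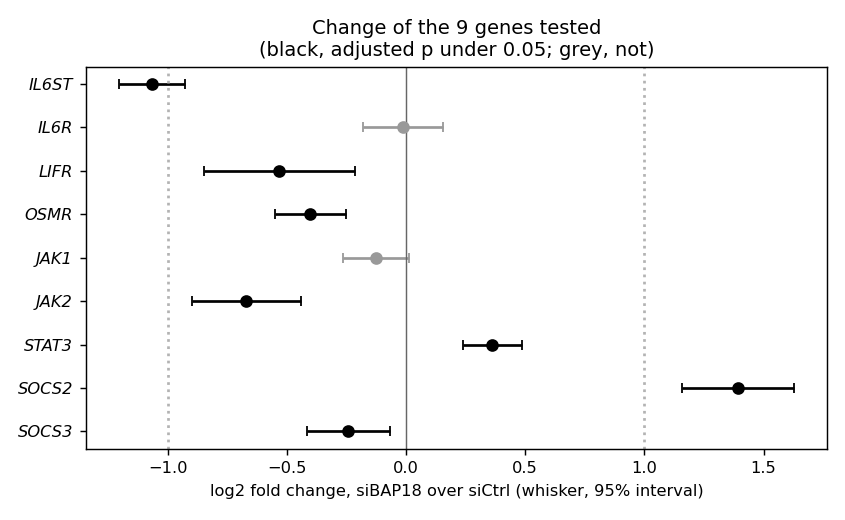
Log2 fold change of the 9 genes tested, siBAP18 over siCtrl, with whiskers of the 95% interval; black marks an adjusted p under 0.05 and dotted lines mark a log2 fold change of 1 in either direction. SOCS2 at 1.39 and IL6ST at −1.07 lie past the dotted lines, and the whiskers of IL6R and JAK1 cross 0.

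Levels of different genes were compared per length, in RPKM units, where counts are divided by gene length and by the library total. In siCtrl cells, mean RPKM was 12.4 for STAT3, 11.5 for JAK1, 9.01 for OSMR, 6.01 for IL6ST, 4.54 for SOCS3 and 2.52 for IL6R. JAK2 followed at 1.15 RPKM, SOCS2 at 0.552, LIFR at 0.238 and SOCS1 at 0.0744. No neighbours in this order overlapped in their ranges over 3 libraries. In siBAP18 cells, mean RPKM was 16.0 for STAT3, 10.6 for JAK1, 6.85 for OSMR, 3.85 for SOCS3, 2.88 for IL6ST and 2.50 for IL6R, and the ranges of the last pair overlapped. SOCS2 at 1.45 RPKM stood above JAK2 at 0.724, and LIFR at 0.164 overlapped SOCS1 at 0.138. Thus IL6ST stood above SOCS3 in siCtrl and below it in siBAP18, and SOCS2 changed places with JAK2.

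**Figure D3:**
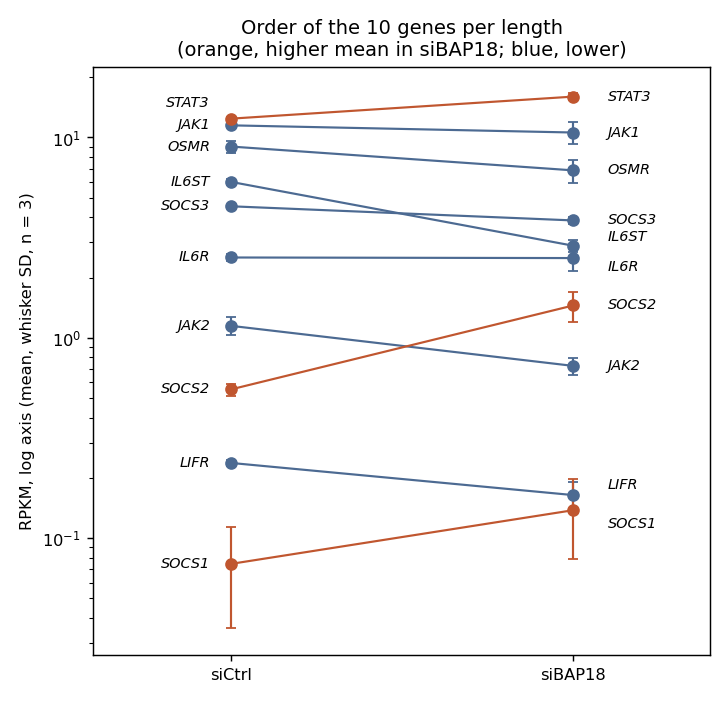
Mean RPKM of the 10 genes in siCtrl and siBAP18 on a log axis, with whiskers of SD over 3 libraries; orange marks a higher and blue a lower mean in siBAP18. The line of IL6ST crosses that of SOCS3 and ends beside IL6R, and the line of SOCS2 crosses that of JAK2.

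The balance between the parts of the route was then calculated within each library as a ratio of RPKM. For 11 ratios, an exact two-sided permutation test of 3 against 3 libraries cannot give a p under 0.1, and the groups of 10 ratios did not overlap (exact permutation p = 0.1, 0.11 after Benjamini-Hochberg adjustment over the 11). The ratio of the shared chain to OSMR was 0.629, 0.630 and 0.751 in siCtrl and 0.394, 0.409 and 0.468 in siBAP18. The ratio of IL6ST to IL6R was 2.39 ± 0.145 in siCtrl and 1.16 ± 0.123 in siBAP18 (SD, n = 3 each), and the RPKM ranges of the 2 chains overlapped after siBAP18. Against LIFR, IL6ST stood at 25.3 ± 1.65 in siCtrl and 17.9 ± 2.76 in siBAP18. The OSMR to LIFR ratio was the one that overlapped, from 36.2 to 39.2 in siCtrl and from 38.7 to 44.4 in siBAP18 (exact permutation p = 0.2).

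Downstream, STAT3 to IL6ST was 2.07 ± 0.0729 in siCtrl and 5.56 ± 0.262 in siBAP18. The STAT3 to JAK1 ratio was 1.08 ± 0.0142 and 1.52 ± 0.141, and JAK1 to JAK2 was 10.1 ± 1.09 and 14.6 ± 1.06. Each was higher in every siBAP18 library than in every siCtrl library. Among the inhibitors, SOCS3 to SOCS2 was 8.24 ± 0.628 in siCtrl and 2.73 ± 0.616 in siBAP18, and SOCS3 to STAT3 was 0.366 ± 0.0151 and 0.241 ± 0.0191 (SD, n = 3 each).

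**Figure D4:**
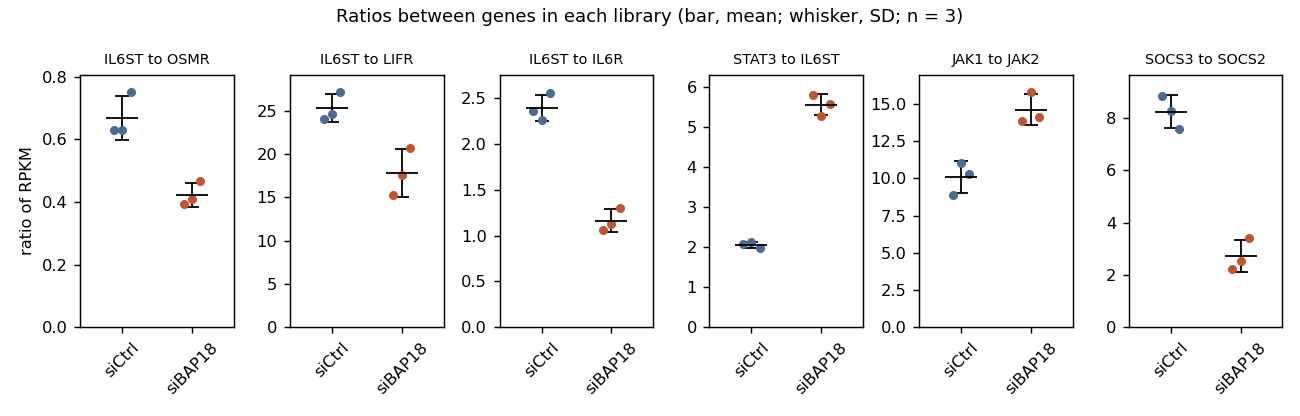
Ratios of RPKM between pairs of genes in each library, on axes that start at 0; points are libraries, bars are means and whiskers are SD over 3 libraries. The 3 ratios with IL6ST on top and the SOCS3 to SOCS2 ratio are lower in every siBAP18 library, and STAT3 to IL6ST and JAK1 to JAK2 are higher.

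Genes around the 10 were taken from lists of the same pathway, to be read against the 24.5% of all genes tested that rose and the 25.1% that fell. Of the ligand genes, 8 were listed and 3 passed the filter. IL11, a cytokine that signals through gp130 with its own receptor chain, was 2.69, 2.11 and 2.46 CPM in siCtrl and 10.9, 9.33 and 11.5 CPM in siBAP18. It rose 4.35-fold (log2 fold change 2.12, standard error 0.124, adjusted p = 4.68e-13). CLCF1, a ligand of the ciliary neurotrophic factor receptor, rose (log2 fold change 0.37), and LIF fell by 0.21 (adjusted p = 0.0115). IL6 had 4, 0 and 8 counts in siCtrl and 6, 4 and 4 in siBAP18, and OSM had at most 2 counts in any library. Of the other receptor chains, IL27RA, which pairs with gp130 for interleukin-27, fell by 0.81, while IL11RA stood at a log2 fold change of 0.11 (adjusted p = 0.577) and IL31RA 0.96 (adjusted p = 0.0759). CLCF1, IL27RA and IL31RA were chosen after their values were seen.

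Of 8 other JAK and STAT genes, 1 rose and 2 fell. STAT5B rose (log2 fold change 0.57, adjusted p = 1.21e-07), from 30.8 ± 0.980 to 45.9 ± 0.778 CPM (SD, n = 3 each). STAT5A, which lies between STAT5B and STAT3, stood at 0.098 (adjusted p = 0.404), and its groups overlapped. TYK2, the third kinase of gp130, fell by 0.22 and STAT6 by 0.23. Of 5 other genes of the SOCS family, 3 fell and 2 did not pass the test. Those that fell were SOCS4 (−0.41), SOCS6 (−0.21) and SOCS7 (−0.26). CISH, a classical target of STAT5, stood at −0.17 (adjusted p = 0.503). SOCS2 was thus the one SOCS family gene, of the 7 tested, that rose. Of 7 genes of PIAS proteins and phosphatases that restrain the route, PIAS4 rose (0.34) and PIAS1 (−0.53), PTPN1 (−0.23) and PTPN6 (−0.29) fell. STAT5A, STAT5B, STAT6, SOCS4, SOCS6, SOCS7 and these 4 inhibitor genes were chosen after their values were seen.

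The phosphatase SHP2 links gp130 to RAS and PI3-kinase. Of 7 genes of this branch, 4 fell, against 25.1% of all genes, and 3 did not pass the test. PTPN11, which encodes SHP2, was 95.6, 104 and 98.0 CPM in siCtrl and 61.7, 70.0 and 59.1 CPM in siBAP18, and fell by 0.64 (adjusted p = 5.26e-08). SOS1 (−0.68), PIK3R1 (−0.83) and PIK3CA (−0.52), chosen after their values were seen, also fell. ADAM10 and ADAM17, proteases that release IL6R from the cell surface, fell by 0.82 and 0.54. ADAM10 was 73.8, 73.3 and 77.8 CPM in siCtrl and 43.1, 45.2 and 39.2 CPM in siBAP18. All 6 falls in the branch and the protease pair were smaller than the fold threshold.

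Of 26 tested genes known to respond to STAT3, 11 rose, against 24.5% of all genes, 7 fell, against 25.1%, and 8 did not pass, with a median log2 fold change of 0.18. The called genes were BCL3 (1.23), FOS (1.25) and ICAM1 (1.56) among the higher and SERPINA3 (−2.46) and HIF1A (−1.06) among the lower. BCL3 is a coregulator of NF-κB, FOS an immediate early factor and ICAM1 an adhesion molecule, while SERPINA3 is an acute-phase protein and HIF1A the oxygen-regulated factor. ICAM1 was 1.43, 1.46 and 1.33 CPM in siCtrl and 4.17, 4.06 and 4.24 CPM in siBAP18, with little spread in both groups. SERPINA3 was 1.64, 2.43 and 3.04 CPM in siCtrl and 0.441, 0.360 and 0.493 CPM in siBAP18, and the groups did not overlap. Several of these genes also respond to other factors. Of 18 tested interferon-responsive genes, 4 rose and 5 fell, near the shares over all genes, with a median of 0.086, and MX1 (1.21), an antiviral GTPase, was the one called. Over all 9 lists, 80 of 96 genes were tested, of which 20 rose and 28 fell. Over all genes tested, 24.5% rose and 25.1% fell.

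**Figure D5:**
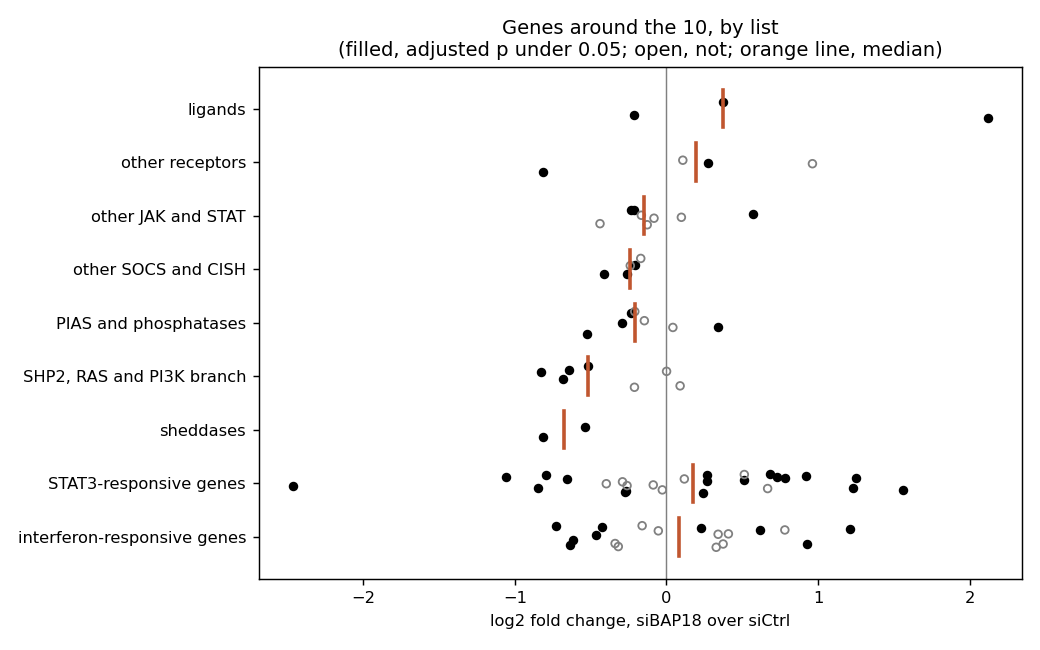
Log2 fold change, siBAP18 over siCtrl, of tested genes in 9 lists around the 10; filled points have an adjusted p under 0.05, open points do not, and orange lines are medians. The SHP2 branch, the other SOCS genes and the sheddases have their filled points below 0, and the STAT3-responsive genes spread from −2.46 to 1.56.

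Nearest in profile to SOCS2 and IL6ST were genes compared over the 6 libraries by the root mean square distance of centered log2 CPM, among 14221 genes whose average log2 CPM reached 1. For SOCS2 they were FJX1 (distance 0.0513, log2 fold change 1.34), RP11-611O2.5 (0.0740, 1.47) and ZNF134 (0.0776, 1.51). For IL6ST they were ATP2B1, a calcium pump (distance 0.0216, log2 fold change −1.08), KIF5B, a kinesin motor (0.0328, −1.04), and PHF6 (0.0389, −1.06). A gene with a like change and a like spread in the same 6 libraries gives a small distance, so these values are a description.

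Sequences in the 3′ UTRs of the 10 genes were read for the letters that pair with bases 2 to 8 of the guide strand of each siRNA, the stretch through which a siRNA can also touch other transcripts. The letters searched on the transcript strand of GENCODE 29 were AATCACA for siBAP18#1, AAGATTC for siBAP18#2, ACTCAAC for siBAP18#3 and TGTCACG for siCtrl. Matches were found in 4 of the 10 genes, to siBAP18 siRNAs in IL6ST, LIFR and SOCS3 and to siCtrl in OSMR, and all are shown. Capitals mark the match, with 10 bases on either side, on GRCh38. In IL6ST, ACTCAAC lies at chr5:55940336-55940342 in the 3′ UTR of 3 transcripts and AATCACA at chr5:55956165-55956171 in an alternative 3′ UTR of 2 transcripts, both on the − strand. The match in LIFR lies at chr5:38477668-38477674 (− strand), and those in SOCS3 at chr17:78356951-78356957 and chr17:78356880-78356886 (− strand). The match to siCtrl in OSMR lies at chr5:38886385-38886391 (+ strand), in the 429-base 3′ UTR of 1 short transcript.
IL6ST siBAP18#3: catttcacaaACTCAACagagtgccat
IL6ST siBAP18#1: acaagatggaAATCACAtttacaaaat
LIFR siBAP18#2: tattgactcaAAGATTCaaatctactt
SOCS3 siBAP18#2: gtcttttataAAGATTCcacctccagt
SOCS3 siBAP18#3: tgcttgaagaACTCAACaaaatcccaa
OSMR siCtrl: cttttaataaTGTCACGagcaccaatg

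The matches of siBAP18#3 in IL6ST and SOCS3, of siBAP18#2 in LIFR and of siCtrl in OSMR are followed by an A. It lies opposite base 1 of the guide strand, which is also an A in each of these siRNAs, so it does not pair. The letters of a match are common. Of 19132 genes with a 3′ UTR, 14.1% held the letters of siBAP18#1, 11.2% those of siBAP18#2, 7.29% those of siBAP18#3 and 2.99% those of siCtrl. In 3′ UTRs at least as long as the members' median of 2309 bases, the shares were 33.4%, 26.9%, 17.7% and 6.66%. Among the 10 genes, 1, 2, 2 and 1 held them. With 6 letters in place of 7, the numbers were 4, 5, 4 and 1, and 7 of the 10 genes matched some siBAP18 siRNA, among them IL6R and JAK1, which did not pass the test, and SOCS2, which rose. In the longest 3′ UTR of each gene alone they were 1, 2, 2 and 0. The median log2 fold change of all tested genes with and without a match was −0.14 and 0.0092 for siBAP18#1, −0.13 and 0.0039 for siBAP18#2, −0.25 and 0.0050 for siBAP18#3, and 0.013 and −0.014 for siCtrl. Genes with a match to an siBAP18 siRNA had longer 3′ UTRs, with medians from 3146 to 3204 bases, against 1111 to 1218 bases without. Genes with a match to siCtrl also had longer 3′ UTRs, with a median of 2863 bases, against 1288 bases without. The part of such matches and of 3′ UTR length in the fall of IL6ST, LIFR and SOCS3 was not tested. In the lists around the 10, 13 tested genes held the letters of siBAP18#1, of which 2 rose, ICAM1 and TIMP1, and 7 fell. For siBAP18#2 they were 10 genes, of which VEGFA rose and 5 fell, and for siBAP18#3 they were LIF, PTPN11 and CCND1, which fell. For siCtrl they were PIK3R1, which fell, and BIRC5, which did not pass the test. Over all genes tested, 24.5% rose and 25.1% fell, and the genes named here for their match were chosen after their values were seen. Of the neighbours of IL6ST in profile, KIF5B held those of siBAP18#3, and ATP2B1 and PHF6 those of siBAP18#2, which IL6ST itself did not hold. Of the neighbours of SOCS2, FJX1 and ZNF134 held none, and RP11-611O2.5 had no annotated 3′ UTR.

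Promoter windows from 250 bases before to 50 bases after the start of each gene, from RefSeq on GRCh38.p14, were searched for TTCNNNGAA, the palindrome bound by STAT dimers, which reads the same on both strands. It was present in 9.38% of 27305 genes. Of 9 members matched by symbol in the table, 1 held it, LIFR, in 2 of its 3 windows, and SOCS2 was not matched. Of 17 STAT3-responsive genes with a window, 4 held it, namely FGA (log2 fold change −0.27), IRF1 (0.24), LRG1 (−0.40, adjusted p = 0.455) and ICAM1. A window of LIFR, as the one member with the letters, and those of ICAM1, as the called gene with them, and CISH, which held 4 matches and did not pass the test, are shown with the matches in capitals. They lie at chr5:38595356-38595655 (− strand), chr19:10270870-10271169 (+ strand) and chr3:50611725-50612024 (− strand). A match is a description of letters and not a binding site.
LIFR promoter: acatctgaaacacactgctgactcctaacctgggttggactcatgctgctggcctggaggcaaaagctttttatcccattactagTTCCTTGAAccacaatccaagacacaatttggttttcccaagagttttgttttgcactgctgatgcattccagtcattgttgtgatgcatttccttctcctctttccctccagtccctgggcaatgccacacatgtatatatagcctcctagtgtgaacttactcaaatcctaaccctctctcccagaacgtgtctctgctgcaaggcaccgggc
ICAM1 promoter: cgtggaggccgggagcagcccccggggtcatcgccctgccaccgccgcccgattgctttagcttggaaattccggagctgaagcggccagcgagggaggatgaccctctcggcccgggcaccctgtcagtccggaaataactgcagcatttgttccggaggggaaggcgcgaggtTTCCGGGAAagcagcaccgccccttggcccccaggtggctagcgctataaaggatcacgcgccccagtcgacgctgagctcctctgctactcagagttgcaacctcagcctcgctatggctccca
CISH promoter: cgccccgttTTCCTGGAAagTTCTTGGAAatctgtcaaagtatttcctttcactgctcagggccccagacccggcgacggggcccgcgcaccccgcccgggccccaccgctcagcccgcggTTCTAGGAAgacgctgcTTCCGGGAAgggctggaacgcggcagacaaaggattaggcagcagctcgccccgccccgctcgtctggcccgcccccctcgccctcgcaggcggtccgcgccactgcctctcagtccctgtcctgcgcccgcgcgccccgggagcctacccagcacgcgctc

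The labelled cell type was compared with markers. All 6 epithelial markers examined were present, the lowest siCtrl value being 62.9 CPM for CDH1, and their summed level was 21150 to 22978 CPM in siCtrl and 16892 to 21068 CPM in siBAP18. Of the 6, 4 fell, with CDH1, which encodes E-cadherin, by 1.32, while KRT7 rose (log2 fold change 0.43) and KRT19 did not pass (0.15). Of the haematopoietic markers, CD68, which epithelial cells also express in lysosomes, rose from 66.2 ± 3.47 to 136 ± 21.8 CPM (SD, n = 3 each), and CD14 stood at −0.18 (adjusted p = 0.599). The fibroblast gene COL1A2 had at most 8 counts in any library, and COL1A1 fell from 12.0 to 9.17 CPM. The summed fibroblast markers were 11.7 to 12.9 CPM in siCtrl and 8.76 to 10.3 CPM in siBAP18, and the 4 endothelial markers together 0.984 to 1.15 and 0.890 to 1.13 CPM. Of the latter, PECAM1 fell by 1.53 and CDH5 rose by 1.10 on the log2 scale. The part of CD68 and of these levels in the results for the 10 genes was not tested.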

How the data were processed

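RNA from 6 A549 cultures (3 siCtrl, 3 siBAP18) was analysed, grouped by their GEO labels, which call the cultures biological replicates. The authors deposited whole-number read counts per gene, without normalization, and RPKM values, which equal the counts divided by listed gene length and the column total (largest difference 4.7e-11). The aligner, the counting program and its strand setting are not given in the sources used here. The labels describe strand-specific libraries, and the submitters' processing notes list hg38 and GRCm38. Positions in the files match GRCh38. Of the values from 1 to 20, 74.9% to 77.2% per library were even, so a count need not be an independent fragment. No error from counting alone is given here, and the standard errors and SDs rest on the spread between libraries.

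The analysis of counts used R 4.3.3, edgeR 4.0.16 (filterByExpr, TMM, quasi-likelihood test, Benjamini-Hochberg adjustment), limma 3.58.1 and DESeq2 1.42.0. Standard errors came from the log2 fold change and the square root of F, and 95% intervals from the standard errors under a normal approximation. The steps were tested on simulated data. No pair of replicates was a copy (chi-square over degrees of freedom 4.2 to 4.9 in siCtrl and 11.0 to 25.8 in siBAP18). Sequences were searched with Python 3.11.15, numpy 2.4.6 and pandas 2.3.3 in GENCODE 29 and RefSeq tables, and figures were drawn with matplotlib 3.10.9.

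The 10 genes, the lists and the tests were chosen with earlier results of these data known. Named genes are the 10, C17orf49, up to 6 called genes of each list, a set of relatives fixed by name (IL6, IL11, LIF, OSM, IL11RA, TYK2, CISH, PTPN11, ADAM10, ADAM17) and the 3 nearest profiles to the member with the smallest adjusted p in each direction. Further genes of the lists were named after their values were seen, as stated beside them. IL27, IL31, CXCL10, PTPRC, CD3E and DCN were not analysed here, and some results are not reported here. Alternatives were 3 other scalings, the DESeq2 Wald test, no filter, a minimum of 10 counts per library, a replicate block, leaving out each library, dropping the fold change threshold, limma with pseudocounts of 1 and 0.1 on log2 RPKM (mean RPKM 0.5 or more), the former also unfiltered, and sites of 6 bases or in the longest 3′ UTR alone.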

Additional observations from a re-analysis of the deposited data

How the results depend on the processing

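The 2 members that rose did so under all 16 alternative fits, and the members that fell numbered 4 or 5 with each library left out and 3 under limma on log2(RPKM + 1) without a filter. There, LIFR had an adjusted p of 0.0621 and OSMR of 0.0515, and LIFR was not tested by limma at a mean RPKM of at least 0.5. The log2 fold change of IL6ST lay between −1.10 and −0.85 and that of SOCS2 between 0.65 and 1.49. The values nearest 0 came from limma on log2(RPKM + 1), where a pseudocount shrinks low genes, and neither gene was called there. IL6R, which passed no test, ranged from −0.063 to 0.069 with each library left out, and had a log2 fold change of 0.0069 without siCtrl replicate 2 and 0.069 without siBAP18 replicate 3. Over all genes, 1758 were called, against 348 by limma on log2(RPKM + 1), 899 by limma on log2(RPKM + 0.1), 344 by limma on log2(RPKM + 1) without a filter and 10305 with no fold change threshold in edgeR. With edgeR, 2051 were called with no filter, 1195 with at least 10 counts in every library, and 1714 to 1934 with each library left out. Other scalings moved the median of all genes by at most 0.0105. The replicate numbers did not pair the libraries (Pearson r of −0.017, 0.051 and 0.0038 across genes), and a replicate block gave 1741 called genes and the same counts of members, 2 higher and 5 lower. Depth limits SOCS1, IL6 and OSM, which had too few counts for a test.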
